A study of Bos taurus with 2 samples.

Results

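Chemokines are small secreted proteins that draw leukocytes along a gradient, and chemokine receptors are the membrane-spanning proteins, coupled to G proteins, through which leukocytes sense them.
The genes described here are those whose symbol on a bovine expression array is CCL, CXCL, XCL or CX3CL with a number, for ligands, or CCR, CXCR, XCR, CX3CR, CCRL1 or CCRL2, for receptors. There were 50 such genes among 17073 genes with a symbol on the array, 30 ligands and 20 receptors, and 95 probes represented them. Symbols are those of the array's own annotation, and chemokines filed under older names, such as IL8, are given separately. They were measured in whey, the liquid that remains of milk after fat and casein are removed, from Holstein cows. Whey was spun at 10000 g and 4 °C for 90 min, and the pellet was washed with 2 further spins. The submitters call this washed pellet exosome, the name for small vesicles that cells release, and the liquid above it is the supernatant. That speed comes from the labels, so which particles the pellet held is not settled here. RNA from 3 raw milk samples was mixed in equal parts, 100 ng was labelled with the dye Cy3, and each fraction was put on 1 array. There are no replicates, the number of arrays limits the precision, and all differences below are between these 2 arrays and carry no test.

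As background, chemokine families are named for the spacing of the cysteines near the start of the mature protein, adjacent in CC ligands and parted by a residue in CXC ligands. Ligands are made by many cells, among them epithelium and stroma, while most receptors are made by leukocytes. In the mammary gland, the ligand CCL28 is known to guide antibody-secreting cells, and the neutrophil-attracting CXC ligands are known for their part in mastitis.

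The measurement at each probe is hybridisation to 60 bases of sequence, and a few of these sequences carry the results. Coordinates are those of the array's annotation in build HGSC Btau_3.1, and letters run 5′ to 3′ as the array files list them. The CCL3 probe (chr19:13822185-13823099, plus strand) is shown for the capitals TGCTGC, letters that can spell adjacent cysteine codons like those that name the CC family. The reading frame was not established here. These letters stood in 2.77% of all probes on the array in the sense direction (4.98% on either strand), and in 5 of the 95 chemokine and receptor probes (8 on either strand), among them those of CCL3, CCL20, CCR9 and CXCR7. The CXCL11 probe (chr6:94147023-94147318, plus strand) is shown because its 60 bases map over 296 genomic bases, and the CXCR5 probe (chr15:27942438-27942497, plus strand) because it is a receptor probe with a signal.
CCL3: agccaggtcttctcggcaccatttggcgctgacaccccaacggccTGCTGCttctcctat
CXCL11: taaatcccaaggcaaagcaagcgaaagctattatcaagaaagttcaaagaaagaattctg
CXCR5: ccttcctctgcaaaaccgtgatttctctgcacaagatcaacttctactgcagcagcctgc
The 30 bases that open 4 further probes are given because these probes had a signal well above background on the supernatant array, on which few chemokine probes did. They are those of CXCL10 (chr6:94129412-94129471, minus strand), CCL4 (chr19:13801734-13801793, minus strand), CCL11 (chr19:15629842-15629901, minus strand) and XCL1 (chr16:33527936-33527995, minus strand).
CXCL10: actgccacccctccaaggggcccatattct
CCL4: cctctccatgctcacgactcccctcagcag
CCL11: gaatgccatggagtacctgaaccaaaaatc
XCL1: tatcttctgcacaaaaggtgatttatttat
CXCL2 and CXCL3, ligands of the neutrophil receptor CXCR2, lie near each other on chromosome 6, and their probes at chr6:91929433-91929492 and chr6:92062155-92062214, both on the plus strand, are alike. Aligned, they matched at 45 of 55 bases (81.8%). A stretch of 30 bases of each is given with the differing bases in capitals, 2 of 30, so the signals of CXCL2 and CXCL3 are uncertain as measures of either gene alone.
CXCL2: cttgtaaggcaCaatgccttgtttCatgtt
CXCL3: cttgtaaggcaTaatgccttgtttAatgtt

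A gene counted as detected on an array where the scanner software called at least 1 of its probes well above background. By this rule 66.5% of all named genes were detected in the exosome fraction and 22.2% in the supernatant. Called signals started at 11.3 in the exosome fraction and 9.04 in the supernatant, in the arbitrary units of the background-subtracted processed signal. Among 3537 genes with a shared called probe, the median gene was 10.7-fold brighter on the exosome array, while 8 spike-in control probes differed by 2.27 on the log2 scale, so differences are given both unscaled and relative to the median gene. The whey samples carried milk protein messages: the 3 probes of LALBA, the lactose synthase subunit alpha-lactalbumin, read 313295, 222467 and 239 in the exosome fraction and 1117, 19.4 and 12.6 in the supernatant, all called. Signals are written with the error that the scanner software's error model gives for the spot, which leaves out any variation between milks, extractions or arrays. Across spots of 1 probe the log2 difference between arrays had a standard deviation of 0.18 (9 probes), and across probes of 1 gene it had a standard deviation of 1.73 (542 genes). Both values use only probes called on both arrays. Levels of different genes are not ranked, since probes differ in how they bind.

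Of the 30 ligand genes, 19 (63.3%) were detected on the exosome array, beside the 66.5% over every named gene. Of the 20 receptor genes, 2 (10%) were. On the supernatant array 4 ligands (13.3%), CCL4, CCL11, CXCL10 and XCL1, and 0 receptors were detected, beside 22.2% of all named genes. These 4 ligands were detected on the exosome array too, 15 ligands and both receptors were detected there alone, and 29 genes were detected on neither array. All 50 genes together gave 21 (42%) in the exosome fraction and 4 (8%) in the supernatant.

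**Figure D1:**
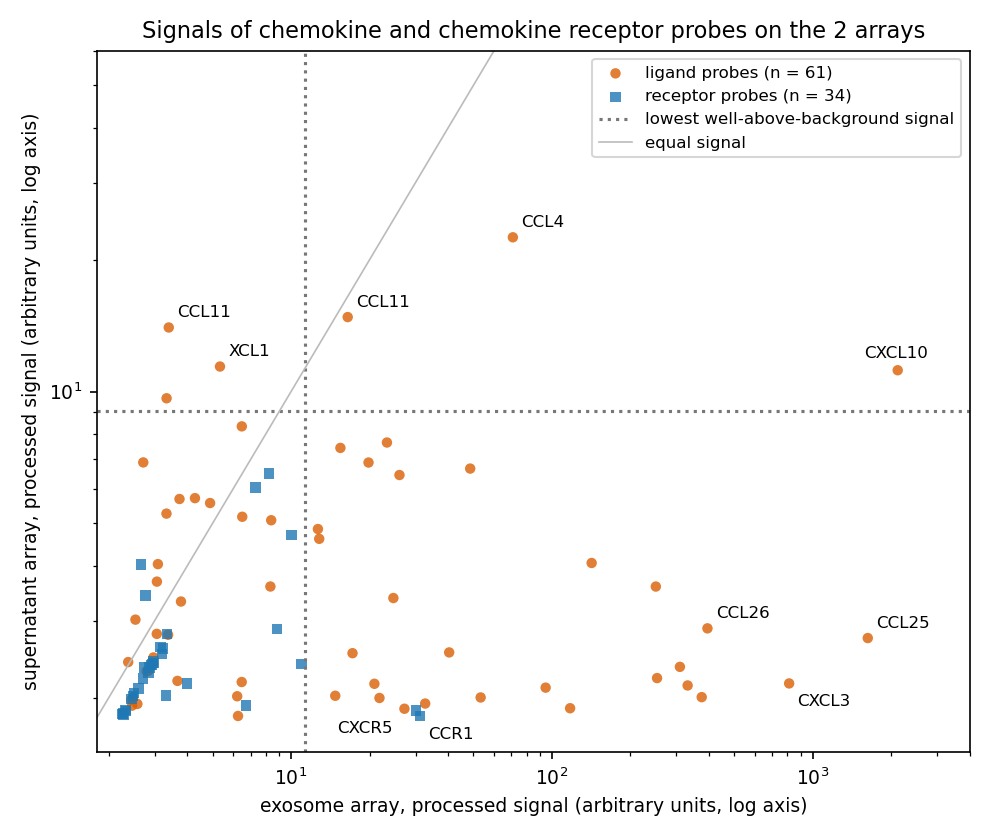
Processed signal of each of the 61 ligand probes (circles) and 34 receptor probes (squares), exosome array on the x axis and supernatant array on the y axis, both in arbitrary units on log axes. Dotted lines mark the lowest well-above-background signal of each array, 11.3 and 9.04, and the solid line marks equal signal; most receptor probes lie in the lower left corner.

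The gap between ligands and receptors was also seen by probe. On the exosome array 29 of 61 ligand probes and 2 of 34 receptor probes were well above background, beside 58.5% of all probes. In the supernatant 5 of 61 and 0 of 34 were, beside 13.1%. Receptors had fewer probes per gene than ligands (1.70 against 2.03, and 2.06 for all genes), and over all genes the share called rose with the number of probes. At equal probe number, 10 of 16 ligands and 2 of 6 receptors with 2 probes were detected on the exosome array, beside 73.3% of all genes with 2 probes. With 1 probe, 3 of 7 ligands and 0 of 10 receptors were detected, beside 47.8%. With 3 probes, 5 of 6 ligands and 0 of 4 receptors were, beside 82.7%.

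CXCL2, CXCL3 and CXCL6, CXC ligands that draw neutrophils into tissue through CXCR1 and CXCR2, were each detected in the exosome fraction alone. CXCL3 had 1 probe, which read 812 ± 81.3 in the exosome fraction and 2.16 in the supernatant, where it was not well above background. That is at least 89.8-fold before scaling and at least 8.40-fold relative to the median gene. CXCL2 read 40.4 ± 5.05 and 14.8 ± 3.07 at its 2 probes in the exosome fraction and 2.54 and 2.02 in the supernatant. These 2 probes are annotated to different transcripts, the second at chr6:92072452-92073356, so the symbol CXCL2 may join separate gene copies. The probe of GRO1, described on the array as CXCL1, lies just beyond the second at chr6:92073748-92073807, on the same strand. Whether the second probe measures CXCL2 or GRO1 was not tested. The single CXCL6 probe read 17.2 ± 3.56 and 2.53, near the lowest called signal of the exosome array, and its accession belongs to CXCL5 in the gene table used here for names (RefSeq, assembly ARS-UCD2.0). The bounds of CXCL2 and CXCL6, at least 2.70-fold and at least 1.90-fold before scaling, lie below the 10.7-fold of the median gene, so they give no order relative to it.

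The ligands of CXCR3, a receptor of activated T cells and natural killer cells, are induced by interferon gamma. In the exosome fraction 2 of the 3 were detected, near the 66.5% of all named genes. CXCL10 read 2118 ± 212 in the exosome fraction and 11.2 ± 2.44 in the supernatant at the probe starting at base 804 of its transcript, well above background on both. The log2 difference was 7.56, which is 4.15 relative to the median gene and 2.0 after scaling on the 75th percentile. Its other 2 probes, at bases 299 and 338, read 6.5 and 2.37 in the exosome fraction and 5.18 and 2.41 in the supernatant, and were called on neither. The unscaled log2 differences at these 2 were 0.33 and -0.02, far from that of the called probe. The CXCL10 result therefore rests on 1 of 3 probes. With probes that meet only the weaker flag averaged in, the difference relative to the median gene was 0.65, and with no filter it was -0.01. CXCL11 was called at both of its probes, 375 ± 37.6 and 250 ± 25.1, against 2.01 and 3.59 on the supernatant array, at least 33.9-fold before scaling and 3.17-fold relative to the median gene. CXCL9 was not detected on either array, with 8.39 and 2.46 in the exosome fraction and 5.08 and 1.92 in the supernatant.

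CXCL12, CXCL16 and CXCL17 were each called at some of their probes and not at others. CXCL16, a membrane-bound ligand of CXCR6 that also takes up oxidised lipoprotein, read 310 ± 31.1 and 94.6 ± 9.81 at 2 probes and 6.47 at the third, an expressed sequence tag, on the exosome array. All 3 lay between 2.11 and 2.35 on the supernatant array, and the bound was at least 18.9-fold, or 1.77-fold relative to the median gene. CXCL12, the stromal ligand that holds CXCR4-bearing cells in bone marrow, was called at 3 of 4 probes, with 48.6 ± 5.40, 27.2 ± 3.57 and 21.8 ± 3.48 on the exosome array, and read 1.89 to 6.67 over its 4 probes on the supernatant array. CXCL17, a mucosal chemokine, was called at 1 of 2 probes, 15.5 ± 2.84, against 7.44 on the supernatant array. Its other probe read 6.47 and 8.33 and was called on neither array. CXCL13, the B cell follicle ligand of CXCR5, and CXCL14 were not detected.

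Among CC ligands, CCL2, CCL25, CCL26 and CCL28 were called at every probe in the exosome fraction and at 0 probes in the supernatant. CCL2 is given below with the ligands of chromosome 19. CCL28, made by mammary and other epithelium and a ligand of CCR10 and CCR3, read 331 ± 33.2 and 253 ± 25.5 in the exosome fraction and 2.13 and 2.22 in the supernatant. Its bound was at least 32.0-fold before scaling and 3.00-fold relative to the median gene. CCL25, the ligand of CCR9 made in thymus and gut epithelium, read 1626 ± 163 and 19.8 ± 3.03 in the exosome fraction and 2.74 and 6.89 in the supernatant. Its 2 probes, at bases 490 and 1149 of 1 transcript, thus differed by 82.1-fold on the exosome array, and the mean of both gave a bound of at least 19.9-fold, or 1.86-fold relative to the median gene. CCL26, an eosinophil ligand of CCR3, read 395 ± 39.6 against 2.88 at its only probe, at least 43.7-fold and 4.08-fold relative to the median gene.

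The inflammatory CC ligands lie in a cluster on chromosome 19, and most were detected in the exosome fraction. CCL2, which draws monocytes through CCR2, read 117 ± 12 and 26 ± 3.67 in the exosome fraction and 1.89 and 6.45 in the supernatant. CCL3, a ligand of CCR1, read 142 ± 14.4 at the probe shown above, 12.8 and 2.96 at 2 others that were not called, and 2.39 to 4.61 on the supernatant array, a bound of at least 15.7-fold, or 1.47-fold relative to the median gene. CCL5, which draws T cells and monocytes, read 53.3 ± 5.87, 32.7 ± 4.05 and 6.26 in the exosome fraction and 1.82 to 2.0 in the supernatant. CCL8 was called at 1 of 2 probes, 24.7 ± 3.57 against 3.38, and CCL16 at 1 of 2, 23.3 ± 4.01 against 7.65. The bounds of CCL2 (at least 6.12-fold), CCL5 (4.62-fold), CCL8 (2.73-fold) and CCL16 (2.58-fold) before scaling lie below that of the median gene.

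CCL4 and CCL11 were measured on both arrays and stood lower on the exosome array than the median gene did. CCL4, an inflammatory ligand that draws monocytes and T cells, read 70.9 ± 7.52 in the exosome fraction and 22.5 ± 3.04 in the supernatant at the probe shown above. The log2 difference of 1.65 was -1.76 relative to the median gene, in size about the spread among probes of a gene. Another CCL4 probe, called on the exosome array alone, read 20.9 ± 3.36 against 2.15, and an expressed sequence tag read 2.47 against 2.0. CCL11, the eosinophil ligand eotaxin, read 16.5 ± 3.1 and 14.8 ± 2.46 at base 342, a log2 difference of 0.16 with an error-model standard error of 0.36, which is -3.26 relative to the median gene. At base 1106 CCL11 read 3.40 on the exosome array, not well above background, and 14 ± 2.95 on the supernatant array, well above it. These differences depend on the reference. Unscaled, CCL4 was higher on the exosome array. CCL11 differed by less than its standard error at base 342, and by -2.04 on the log2 scale at base 1106. After scaling on the 75th percentile CCL4 and CCL11 stood at -3.91 and -5.41 on the log2 scale. CCL11 was the only chemokine or receptor gene called at all its probes on the supernatant array.

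XCL1, the C-class ligand of XCR1 made by natural killer and T cells, was called on each array by a different probe. The transcript probe at base 396 read 12.7 ± 2.69 in the exosome fraction and 4.85 in the supernatant. The expressed sequence tag probe shown above read 5.34 and 11.4 ± 2.14, and maps to the opposite strand from the transcript probe, so whether it measures XCL1 was not tested. No XCL1 probe was called on both arrays, so no difference was computed for the gene. The unscaled log2 differences were 1.38 at the transcript probe and -1.10 at the expressed sequence tag probe. Expressed sequence tag probes of CCL3, CCL19 and CCL20 also lay on the opposite strand, and these were called on neither array.

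The remaining ligands were detected on neither array: CCL14, CCL17, CCL19, CCL20, CCL21, CCL22, CCL24, CX3CL1, CXCL9, CXCL13 and CXCL14. Their 19 probes read 2.46 to 8.39 in the exosome fraction and 1.92 to 9.65 in the supernatant. CCL19 and CCL21, which guide cells to lymph nodes through CCR7, and CCL17 and CCL22, ligands of CCR4, are among them. CCL19 read 9.65 ± 2.89 at its transcript probe on the supernatant array, above the lowest called signal of that array, but was not itself called. A CX3CL1 probe that carries no symbol, only a description, was called on both arrays, so the count of CX3CL1 as not detected holds for the probe with the symbol. Not called means below what these arrays separate from background, not absent.

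**Figure D2:**
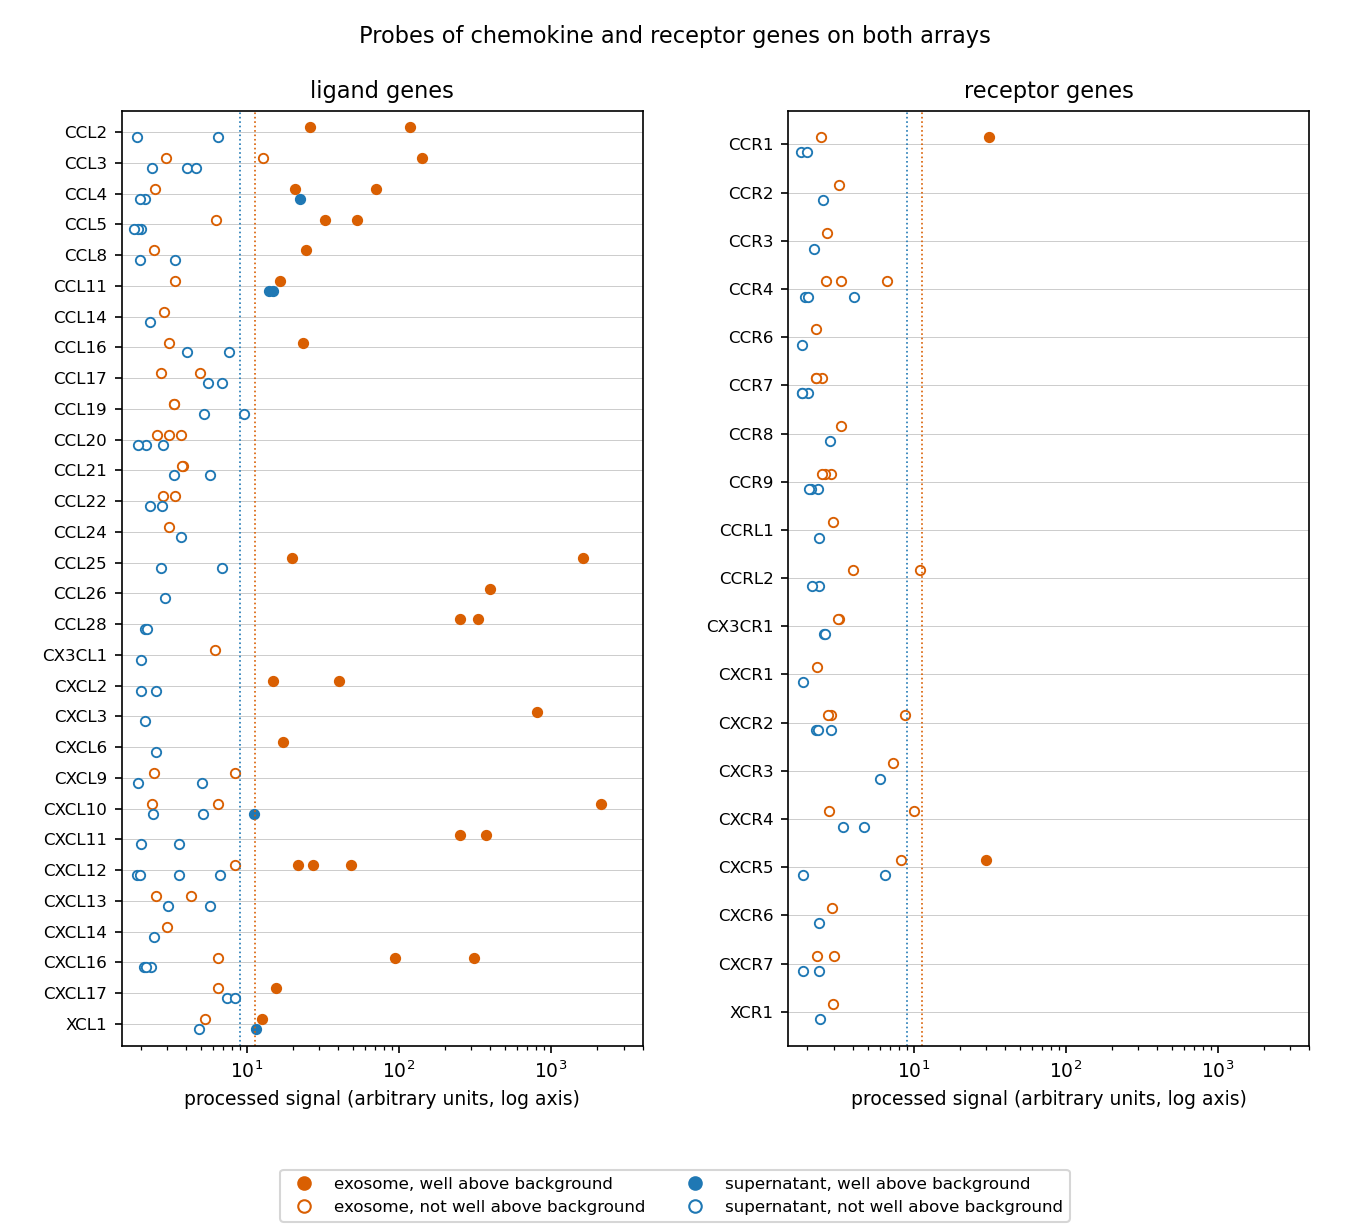
Processed signal of every probe of the 30 ligand genes (left) and of 19 of the 20 receptor genes (right), in arbitrary units on a log axis, with exosome in orange and supernatant in blue. Filled points were well above background and dotted lines mark the lowest such signal of each array; filled exosome points stand at 19 ligands and at CCR1 and CXCR5, and filled supernatant points at CCL4, CCL11, CXCL10 and XCL1.

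Receptor signals were low throughout. CCR1, a receptor of monocytes and neutrophils for CCL3 and CCL5, read 31.2 ± 3.85 in the exosome fraction and 1.81 in the supernatant at base 2575, and 2.44 and 1.99 at base 1012, not called. CXCR5, the receptor of follicular B and T cells for CXCL13, read 30.1 ± 3.80 and 1.87 at the probe shown above, and 8.23 and 6.5 at its other probe, not called. Another CXCR5 probe, filed under a sequence-cluster name, read 2.36 and 1.89. Each of these receptors thus rests on 1 probe, with bounds of at least 3.45-fold for CCR1 and 3.33-fold for CXCR5 before scaling, below the median gene.

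The other 18 receptors were detected on neither array, and their 30 probes read 2.26 to 11.0 in the exosome fraction and 1.83 to 6.04 in the supernatant. They include CCR2, CCR3, CCR4, CCR6 to CCR9, CXCR1 to CXCR4, CXCR6, CXCR7, CCRL1, CCRL2, CX3CR1 and XCR1. CCRL2, a receptor that binds without signalling, read 11.0 ± 3.12 on the exosome array, close to the lowest called signal, with 4.00 at its other probe. CXCR4, the receptor for CXCL12 found on most leukocytes, read 10.05 ± 2.66 and 2.76 in the exosome fraction and 4.70 and 3.43 in the supernatant. CXCR1 and CXCR2, the neutrophil receptors, read 2.31 and 2.74 to 8.82 on the exosome array. Of the 3 probes named CXCR2, 2 have an accession that the reference table assigns to CXCR1, so these names are uncertain. By class, 1 of 9 CCR genes, 1 of 7 CXCR genes and 0 of the 4 others were detected on the exosome array.

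Where the call is drawn changed the counts but kept the ligand share above the receptor share on the exosome array. With the software's weaker flag, for signals positive and significant, 25 ligands and 7 receptors were called there, and 19 ligands and 5 receptors on the supernatant array, beside 82.2% and 65.4% of all genes. The receptors added on the exosome array were CCR4, CCRL2, CXCR2, CXCR3 and CXCR4. With a signal of 4 times the lowest called signal, 12 ligands and 0 receptors remained in the exosome fraction and 0 of either in the supernatant, beside 54.4% and 8.22%. With every probe of a gene required, 8 ligands (CCL2, CCL25, CCL26, CCL28, CXCL2, CXCL3, CXCL6 and CXCL11) were called in the exosome fraction and 1 (CCL11) in the supernatant, and 0 receptors on either, beside 46.3% and 6.21%. Of those 8, CCL26, CXCL3 and CXCL6 have 1 probe only.

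**Figure D3:**
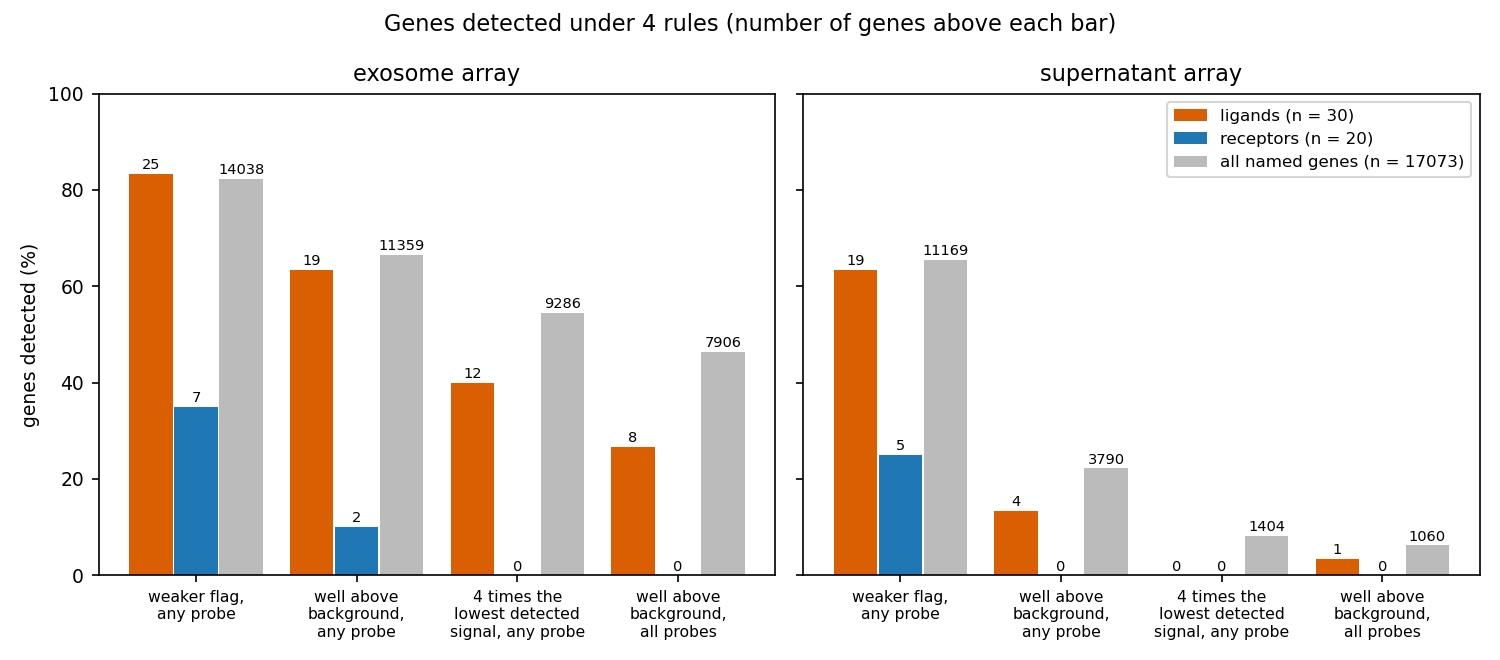
Percent of ligand genes (n = 30), receptor genes (n = 20) and all named genes (n = 17073) called detected on each array under 4 rules, with the number of genes above each bar. On the exosome array the ligand bar stands above the receptor bar under each rule, and on the supernatant array 0 receptors are called under 3 of the 4 rules.

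Relative to the median gene, CXCL10 alone (1 gene) stood 2-fold or more higher and CCL4 and CCL11 (2 genes) 2-fold or more lower, beside 37.7% and 36.8% of all genes that a probe measured on both arrays. The median of the 3 was -1.76 on the log2 scale. For the 17 genes called on the exosome array alone, beside 45.4% of all named genes called there alone, the median bound was 4.62-fold before scaling, against 13.6-fold over all 7756 such genes. In 7 of the 17 (41.2%) the bound reached the 10.7-fold of the median gene, beside 56.1%: CCL3, CCL25, CCL26, CCL28, CXCL3, CXCL11 and CXCL16. Each bound averages only the probes called on the exosome array, here and over all genes. These were 1 of 3 probes for CCL3 and 2 of 3 for CXCL16, whose other probes differed by 1.24-fold to 2.98-fold before scaling. After scaling on the 75th percentile, which shifts the arrays by 5.56 on the log2 scale, only CXCL3 of the 17 kept a bound above 1, at least 1.90-fold.

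Pairs of a ligand and its receptor were counted as a description. Over 31 known ligand and receptor pairs whose members are both on the array, the exosome array called both partners in 2 (CCL3 with CCR1 and CCL5 with CCR1), the ligand alone in 20, the receptor alone in 1 (CXCL13 with CXCR5) and neither in 8. On the supernatant array the ligand alone was called in 4 pairs and neither partner in 27. Pairs share genes, so they are not independent of each other. With 19 of 30 ligands and 2 of 20 receptors called on the exosome array, few pairs could have both partners called. The pair counts thus add no result about pairing, and they depend on which pairs are listed.

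Several chemokine genes lie near each other in the genome, and counts by chromosome are given as a description, beside the 66.5% of all genes called in the exosome fraction and 22.2% in the supernatant. On chromosome 19, 8 of 9 ligand genes were called in the exosome fraction and 2 in the supernatant, with CCL14 not called. These 9 span chr19:13801571-26986765 and include CXCL16, which lies apart from the CC ligands. On chromosome 6, 5 of 7 were called in the exosome fraction and 1 in the supernatant, CXCL9 and CXCL13 being the exceptions. On chromosome 18, CXCL17 was called, and CCL17, CCL22 and CX3CL1 were not. Of the 11 receptor genes on chromosome 22, only CCR1 was called.

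The 12 transcripts with several probes and at least 1 called on the exosome array showed no common gradient along the message. The most intense probe was the last toward the 3′ end in 6 of 12 (50%), beside 67.9% of 7588 such transcripts overall. It was the last in CCL2, CCL5, CCR1, CXCL10, CXCL16 and CXCL17, and an earlier one in CCL3, CCL4, CCL8, CCL11, CCL25 and CXCL12. Probes that map over more than 70 genomic bases, as across an intron, numbered 6 in these genes, and 3 were called on the exosome array: CCL3 at 142, CXCL11 at 250 and CXCL2 at 14.8. Over all genes 52.2% of such probes were called in the exosome fraction and 6.92% in the supernatant.

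**Figure D4:**
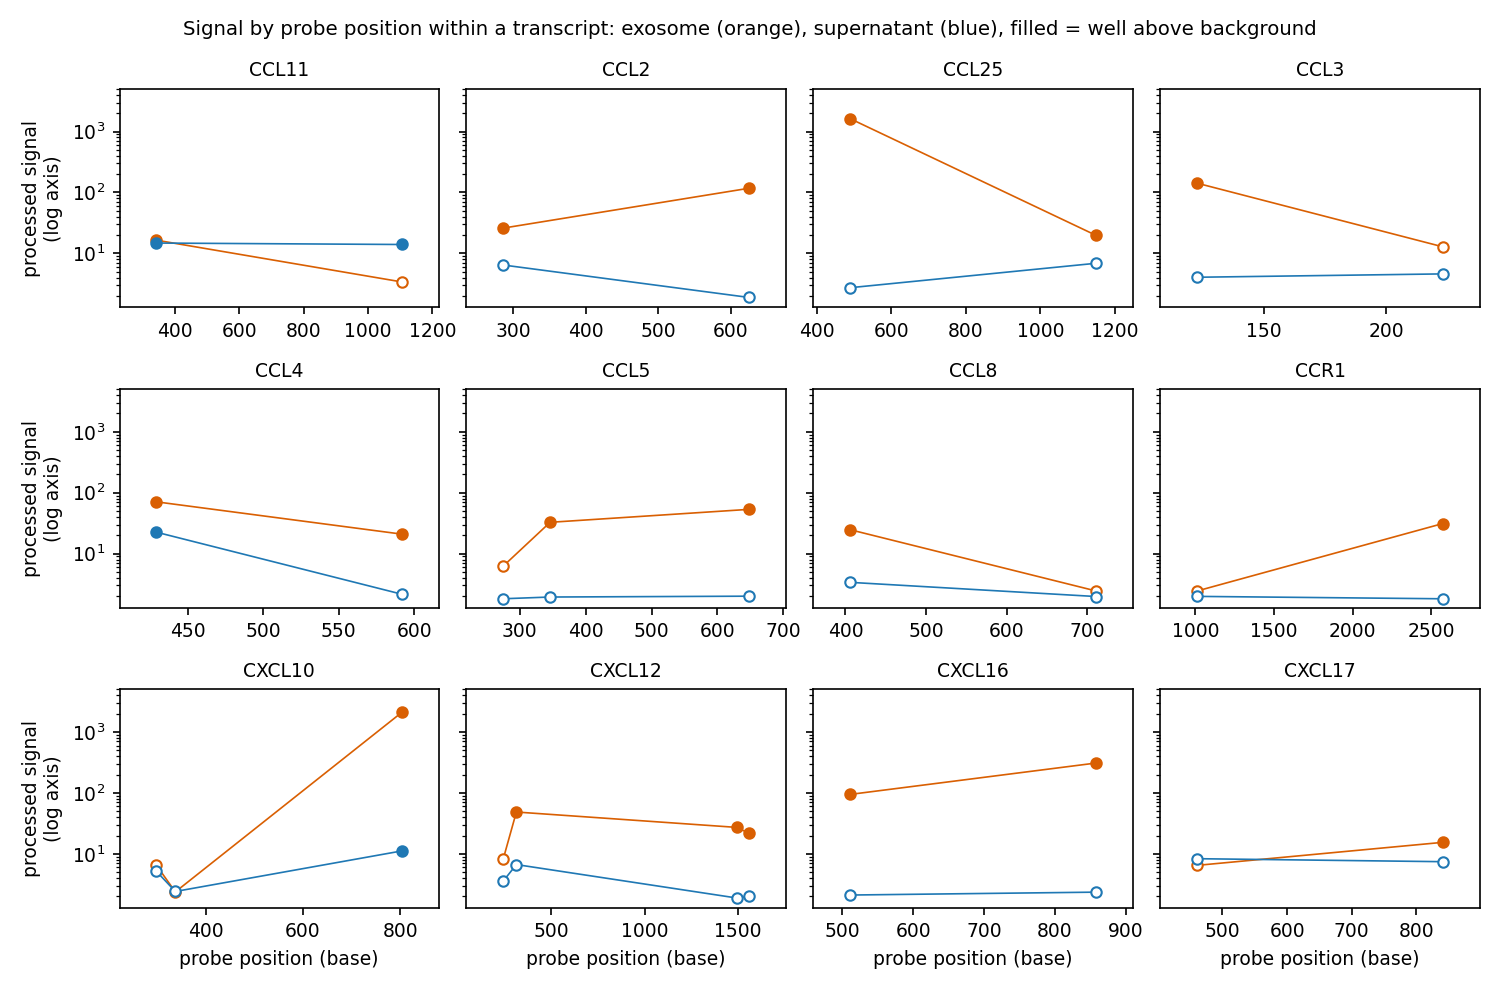
Processed signal (log axis, arbitrary units) against the base at which each probe starts in its transcript, for the 12 transcripts with several probes and at least 1 called on the exosome array. Exosome is orange, supernatant blue, and filled points were well above background; CXCL10 rises to 2118 at base 804, and CCL25 falls from 1626 at base 490 to 19.8 at base 1149.

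Genes that act downstream of the receptors were counted by the same rule, beside 66.5% of all genes called in the exosome fraction and 22.2% in the supernatant. Of 27 heterotrimeric G protein, receptor kinase, arrestin and RGS genes, 19 (70.4%) were called in the exosome fraction and 7 (25.9%) in the supernatant. GNB1, a G protein beta subunit, was called at all 4 probes in the exosome fraction, from 221 to 6161, and at none in the supernatant. Of the 6 genes measured on both arrays, 1 stood 2-fold or more higher than the median gene and 3 stood 2-fold or more lower, where over all genes 37.7% stood higher and 36.8% lower. Of 48 signal transduction genes, 43 (89.6%) and 17 (35.4%) were called, with 5 above and 8 below by the same measure among 17. VAV1, a Rac activator of blood cells, was called on both arrays at 2 of 3 probes, which read 23336 and 187 in the exosome fraction and 25 and 28.7 in the supernatant. TIAM1, another Rac activator, was called on both at 2 of 3 probes, 4407 and 207 against 4653 and 398. FGR, a myeloid kinase with 1 probe, read 3905 and 675.

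Genes of the NF-kB pathway that induces many chemokines were called in 26 of 31 (83.9%) in the exosome fraction and 7 (22.6%) in the supernatant, with 2 above and 2 below among 7 measured. MYD88, an adaptor of Toll-like receptors, was called at all 3 probes in the exosome fraction, 7700, 44.0 and 31, and at none in the supernatant. IRAK1, a kinase of the same receptors, was called at both probes in the exosome fraction, 5508 and 46.8, and at neither in the supernatant. IFNG, IL17A, IL1A, IL6 and TNFAIP3 were not called on the exosome array. Of 22 leukocyte adhesion and glycosaminoglycan genes, 13 (59.1%) and 6 (27.3%) were called, with 2 above and 2 below among 6 measured. EXT1, which builds heparan sulfate, was called at all 3 probes in the exosome fraction, 957, 350 and 307, and at 1 in the supernatant, 34.7, where the other 2 read 1.99 and 3.22.

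Markers of cells that could supply these messages were counted in the same way, and the summed signal of a list adds each gene's mean over all its probes. All 16 luminal epithelial genes were called in the exosome fraction and 9 (56.2%) in the supernatant, beside 66.5% and 22.2% of all genes. Of the 9 measured on both, 7 stood 2-fold or more above the median gene and 0 below, and the summed signal was 758331 and 1047. CSN2, which encodes beta-casein, was called at all 5 probes on both arrays, from 109486 to 270033 in the exosome fraction and from 15.2 to 451 in the supernatant. Neutrophil genes were called in 9 and 4 of 13, with a summed signal of 9344 and 265, and CSF3R, CAMP, MPO and PTAFR were not called on the exosome array. Macrophage and monocyte genes were called in 9 and 6 of 14, with a summed signal of 5281 and 1895. T and natural killer cell genes were called in 10 and 5 of 18 (2992 and 979), and B and plasma cell genes in 6 and 5 of 10 (1184 and 164). Myoepithelial and stromal genes were called in 10 and 7 of 14 (2226 and 381), and endothelial, erythroid and platelet genes in 2 and 2 of 11 (23503 and 1169). Of 4 neutrophil genes measured on both arrays, 1 stood 2-fold or more above the median gene and 1 below. For macrophages and monocytes it was 0 above and 4 below among 5, and for T and natural killer cells 0 and 3 among 5. For B and plasma cells it was 0 and 1 among 5, for myoepithelial and stromal genes 1 and 4 among 7. For the last list it was 0 and 0 among 1. Single genes make up much of several sums, which therefore do not measure a cell type. In the last list HBA, with 1 probe, read 23456 and 1138. LTF, in the neutrophil list, read up to 23069 in the exosome fraction. LYZ, in the macrophage list, read 5371 and 3575 at 1 probe. The part of any of these cells in the chemokine signals was not tested, and in such a mixture fewer cells of a type and less RNA per cell cannot be told apart.

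**Figure D5:**
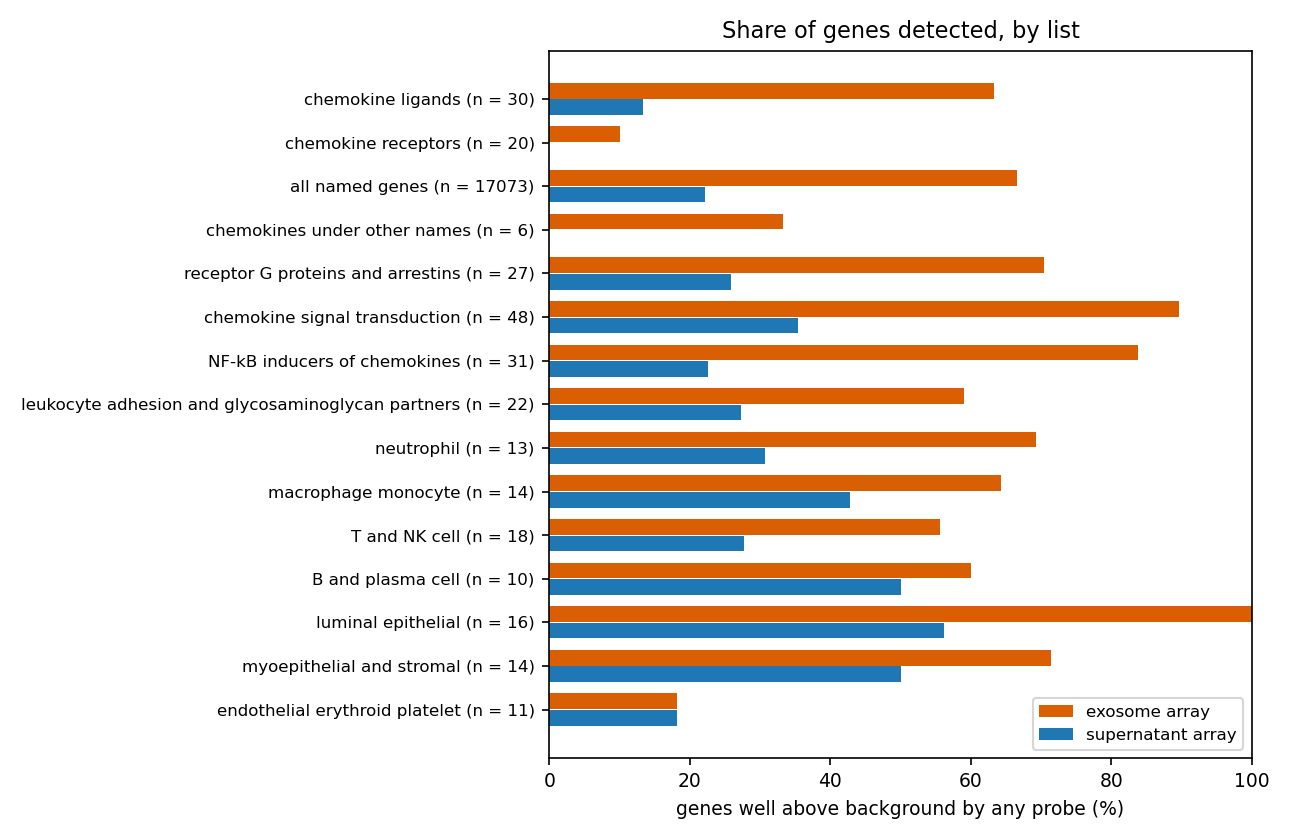
Percent of genes called well above background by any probe on the exosome array (orange) and the supernatant array (blue), for chemokine ligands, chemokine receptors, all named genes and each other list, with the number of genes on the array. Receptors stand at 10% and 0%, ligands at 63.3% and 13.3%, and all named genes at 66.5% and 22.2%.

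Among chemokines filed under other names, the neutrophil attractants IL8 and GRO1 were called in the exosome fraction alone. IL8, now CXCL8, the main neutrophil chemokine, was called at all 3 of its probes on the exosome array, 189 ± 19, 172 ± 17.3 and 90.6 ± 9.36, and read 1.98 to 3.27 on the supernatant array, not called. GRO1, described on the array as CXCL1, read 100.1 ± 10.3 and 2.08 at its only probe, which lies near the second CXCL2 probe. PF4 and PPBP, platelet chemokines, and the decoy receptors CCBP2 and DARC were called on neither array. With these genes added, 21 of 34 ligands and 2 of 22 receptors were called on the exosome array, and 4 and 0 on the supernatant array.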

How the data were processed

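The authors deposited intensity values, the processed signals of Agilent Feature Extraction 10.7.3.1, with background subtracted array by array and no scaling across arrays, per the file headers. The authors' deposited log2 table has column medians of 4.81 and 1.32 and matches the log2 of these signals at all 95 chemokine and receptor probes within 6.79e-07. Any further steps of the authors are not stated in the files or labels used. Both arrays come from 1 slide.

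Control spots and outlier spots (5 exosome, 2 supernatant) were left out and spots of 1 probe averaged, leaving 43652 probes, of which 35130 had a gene name. No spot was saturated (0). CCRN4L, whose name shares letters with the receptors but which is no chemokine receptor, was left out. Detection of a probe means the software's call of well above background, and a gene needed 1 such probe. A difference is the mean log2 difference over probes detected on both arrays, and scaling subtracts each array's 75th percentile. A bound is the mean signal over the gene's called probes against, for each, its signal on the dim array or the lowest called signal there, whichever was higher. The size call was 2-fold. Python 3.11.15, numpy 2.4.6, pandas 2.3.3, R 4.3.3 and limma 3.58.1 (for normexp) were used, and the calculation was tested on simulated data. With 1 array per group no test was run.

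The genes and lists were chosen with earlier results of these data known. The rule for named genes takes every chemokine or receptor gene detected on an array with all its probes, the others by count and range, and of each other list the 2 brightest genes detected on each array. Some genes it would take, among them most of the other lists, are left out and not reported here. CXCL9, CXCL13, CXCL14, CCL14, CCL17, CCL19 to CCL22, CCL24 and the undetected receptors are therefore summarised, and CXCL9, CCL19, CCRL2, CXCR1, CXCR2 and CXCR4 were given values after these were seen. Names were also looked up in a RefSeq gene table (assembly ARS-UCD2.0), which held the accession of 26740 probes and served for names only. Alternatives were other scalings, normexp with an offset of 50, other filters on dim probes (the strictest at 4 times the lowest called signal), other ways to join probes, outlier spots kept, the authors' table, updated names and added members. Whether a probe lies in an exon or untranslated region was not analysed here, and protein sequences were not used here.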

Additional observations from a re-analysis of the deposited data

How the results depend on the processing

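Counts of detected genes, differences and the median of the 3 ligands measured on both arrays were recomputed under each alternative. Other scalings, normexp and the authors' table leave the software's call as it is, so they could not change the counts of detected ligands and receptors. These counts were also the same with outlier spots kept. With the brightest probe per gene 3 supernatant ligands were detected in place of 4. With the weaker flag, 19 supernatant ligands, 7 exosome and 5 supernatant receptors were detected, 16 ligands were measured on both arrays, 15 genes were below the median gene, and the ligand median was -2.18. With the stricter filter, 12 ligands and 0 receptors were detected on the exosome array and 0 ligands on the supernatant array, with 0 measured on both, 0 above and 0 below. With every probe required, the exosome array gave 8 ligands and 0 receptors and the supernatant array 1 ligand, with 0 measured on both, 0 above and 0 below. With no filter, 30 ligands entered, 7 genes were above and 34 below, and the median was -1.03. The median was -1.22 with quantile scaling and -1.35 with normexp. Without scaling, signs turned for CCL4 (1.65) and CCL11 (0.16, within its error-model standard error of 0.36). Signs also turned for scaled CXCL10 with the weaker flag (-1.62) and no filter (-2.94). For CXCL10 relative to the median gene the sign turned with no filter (-0.014). The filters change which probes enter a gene's mean, and otherwise the cause was not tested. Adding some of the probes named by their description, those of CCL1, CX3CL1 and CCL27, gave 5 ligands measured, 2 above and a median of -0.39. That alternative was chosen after seeing the data. Leaving out expressed sequence tags on the other strand, also chosen then, gave 19 and 3 ligands, XCL1 no longer being called in the supernatant. No paired analysis was possible because each group has 1 array.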

Other observations

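Some probes carry no chemokine symbol but a description that names a chemokine, and these were noticed after the data were seen. A probe described as CCL1, a ligand of CCR8 made by activated T cells and mast cells, lies at chr19:15484729-15484788 in build HGSC Btau_3.1, among the chromosome 19 CC ligands. It read 15008 ± 1501 in the exosome fraction and 422 ± 42.2 in the supernatant, well above background on both, and its difference was 1.73 on the log2 scale relative to the median gene. It is the only probe for CCL1, and whether it measures CCL1 was not tested. CCR8, its receptor, read 3.34 and 2.80 and was called on neither array.

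Of 2 probes described as CX3CL1, the membrane-anchored ligand fractalkine, the probe at base 458 read 122 ± 12.5 and 14.9 ± 2.56, called on both arrays with a difference of -0.39 relative to the median gene. The other, at base 692, read 5.96 and 2.26, and the probe with the symbol CX3CL1 read 6.22 and 2.02, so 1 of 3 CX3CL1 probes was called. A probe described as CCL23, a monocyte ligand of CCR1, read 83.4 ± 8.70 in the exosome fraction and 2.02 in the supernatant, and lies on chromosome 19 beside CCL14 and CCL16. Probes described as CCL27, a skin ligand of CCR10, as a CCL3-like gene and as a CCR1-like gene were called on neither array. With the probes described as CCL1, CX3CL1 and CCL27 added, 21 of 32 ligands were detected in the exosome fraction and 6 in the supernatant, against 19 and 4 of 30 by symbol. The probes described as CCL23, as CCL3-like and as CCR1-like were not in that count.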
